A study of Mus musculus with 6 samples.

Results

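The genes described here are the mouse amino acid transporters of the solute carrier families Slc1, Slc3, Slc6, Slc7, Slc36, Slc38 and Slc43, measured in cultured macrophages, in macrophages given the lipopeptide FSL-1, and in macrophages given FSL-1 together with nutlin-3a. The families were picked with earlier results of these data known. Within them no measured change was used: every probe set that named 1 gene of the 7 families was taken, and the brightest probe set was kept for each gene. This gave 68 probe sets for 64 of the 22180 genes tested. Of the 64 genes, 61 encode transporters or their heavy chains, and 3 (Slc7a6os, Slc36a1os and Slc6a19os) are opposite-strand neighbours that share only the name.

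The cells came from C57Bl/6 bone marrow, grown for 5 days in 20 ng/ml M-CSF, the macrophage growth factor, and then for 6 days in 1 of 3 media. The first group stayed in M-CSF at 50 ng/ml, the second received FSL-1 at 20 ng/ml, and the third received the same FSL-1 with 10 µM nutlin-3a. FSL-1 is a synthetic bacterial-type lipopeptide sensed by Toll-like receptors 2 and 6, and nutlin-3a blocks the binding of Mdm2 to p53 and so stabilises p53. Each group had 2 arrays. The series describes the FSL-1 cells as multinucleated giant cells. The labels do not say whether M-CSF was kept with FSL-1, so FSL-1 and the loss or lowering of M-CSF cannot be told apart in comparisons with the M-CSF group. RNA was taken from sorted cells; the sources used here do not name the gate. No label states that the replicates are independent cultures or mice, and the tests therefore weigh differences only against the spread between these arrays, which may be technical.

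Amino acids cross membranes through carriers that differ in substrate and in driving force. Some Slc7 proteins are light chains that exchange one amino acid for another and reach the cell surface only when bound to the heavy chain Slc3a2, while Slc1a4, Slc1a5 and the system A carriers of Slc38 use sodium to bring in small neutral amino acids. When amino acids run short, or when other stresses act through the same kinase branch, the transcription factor Atf4 raises many of these carriers together with the enzymes that make amino acids. In macrophages, arginine imported by the cationic carriers feeds nitric oxide synthase and arginase, and cystine imported by Slc7a11 feeds glutathione.

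Values are log2 expression from the authors' RMA, so a difference of 1 is a doubling. A gene was called when its limma adjusted p (Benjamini-Hochberg over all 22180 genes) was under 0.05. "Rose" and "fell" are used only of called genes, and fold changes are the antilog of the log2 difference. Levels of different genes come from different probes and are not set against each other. RNA was pooled from many cells, so fewer cells of a type and less RNA per cell cannot be told apart.

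The arrays of a group correlated at 0.9929 to 0.9951 over all genes, and arrays of different groups at 0.9788 to 0.9858. All 10 macrophage markers examined lay above the median level of all genes (5.51) in every group, with summed linear levels of 33419 to 35086 in M-CSF, 35886 to 35888 with FSL-1 and 35287 to 35336 with FSL-1 and nutlin-3a. Within that list Itgam (0.74) and Adgre1 (0.56) rose and Csf1r, the M-CSF receptor, fell (-0.87) with FSL-1, and Cd14 (-1.12) and Fcgr1 (-1.58) fell with nutlin-3a. The summed level of 12 neutrophil markers moved with FSL-1, from 532 to 594 in M-CSF to 996 to 1028 with FSL-1 and 867 to 883 with nutlin-3a. Of these 12 genes, Mmp8, S100a8 and Cxcr2 rose with FSL-1 and 9 were not called. Ly6g, a marker used to define mouse neutrophils, averaged 4.05, 4.02 and 4.23, below 4.26, the median of probe sets without a gene name. The summed level of 12 fibroblast markers was 591 to 651, 811 to 1090 and 536 to 604 in the 3 groups. Among them Acta2 (0.99) and Vcam1 (0.66) rose with FSL-1, and Acta2 (-1.33) and Col1a2 (-0.80) fell with nutlin-3a. In each of these comparisons 10 of the 12 were not called. The summed level of 9 lymphocyte markers was 3086 to 3435, 1516 to 1586 and 1484 to 1560. The lymphocyte sum was carried by Cd4 (group means 10.60, 9.59 and 10.23) and Ighm (10.59, 9.30 and 7.35); the other 7 genes of that list lay below the median of all genes in every group and were not called. Dendritic cell markers (9 genes) summed to 669 to 752, 826 to 856 and 769 to 821. Among them only Ccr7 was called with FSL-1 (0.65) and only Itgax with nutlin-3a (0.88), both upward. Erythroid, mast cell and megakaryocyte markers (6 genes) summed to 404 to 452, 636 to 656 and 387 to 397. That sum was carried by Pf4 (group means 8.40, 9.11 and 8.25), which rose with FSL-1 (0.71) and fell with nutlin-3a (-0.86). The rest of that list lay below the median of all genes and was not called. No marker was at 0 on any array. The part of other cell types in the results below was not tested.

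With FSL-1, 10 of the 64 genes rose and 1 fell against M-CSF. Slc7a11, Slc6a12, Slc43a3, Slc7a1, Slc1a4, Slc7a6, Slc3a2, Slc38a6, Slc1a5 and Slc6a8 rose, and Slc43a2 fell. The called share was 17.2% of the 64 genes against 6.86% of all genes, with 15.6% against 3.91% for genes that rose and 1.56% against 2.95% for genes that fell. When nutlin-3a was added to FSL-1, 4 genes rose (Slc7a8, Slc43a2, Slc7a2 and Slc6a8) and 7 fell (Slc7a5, Slc43a3, Slc7a1, Slc38a2, Slc1a5, Slc1a4 and Slc6a12). That was again 17.2% of the 64 genes, against 6.5% of all genes, with 6.25% against 2.38% for genes that rose and 10.9% against 4.12% for genes that fell. The median log2 change of the 64 genes was 0.09 with FSL-1 and 0.01 with nutlin-3a, beside -0.01 and 0.02 for all genes. In 34 of the 64 no group mean passed the median of all genes, so this value rests largely on dim genes. Over the other 30 the median change was 0.11 and 0.08, beside -0.00 and -0.01 for the 11684 genes of that level. These medians were small against the changes of the called genes. Both comparisons use the same FSL-1 arrays, which makes a high value on those arrays count upward in the first and downward in the second.

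**Figure D1:**
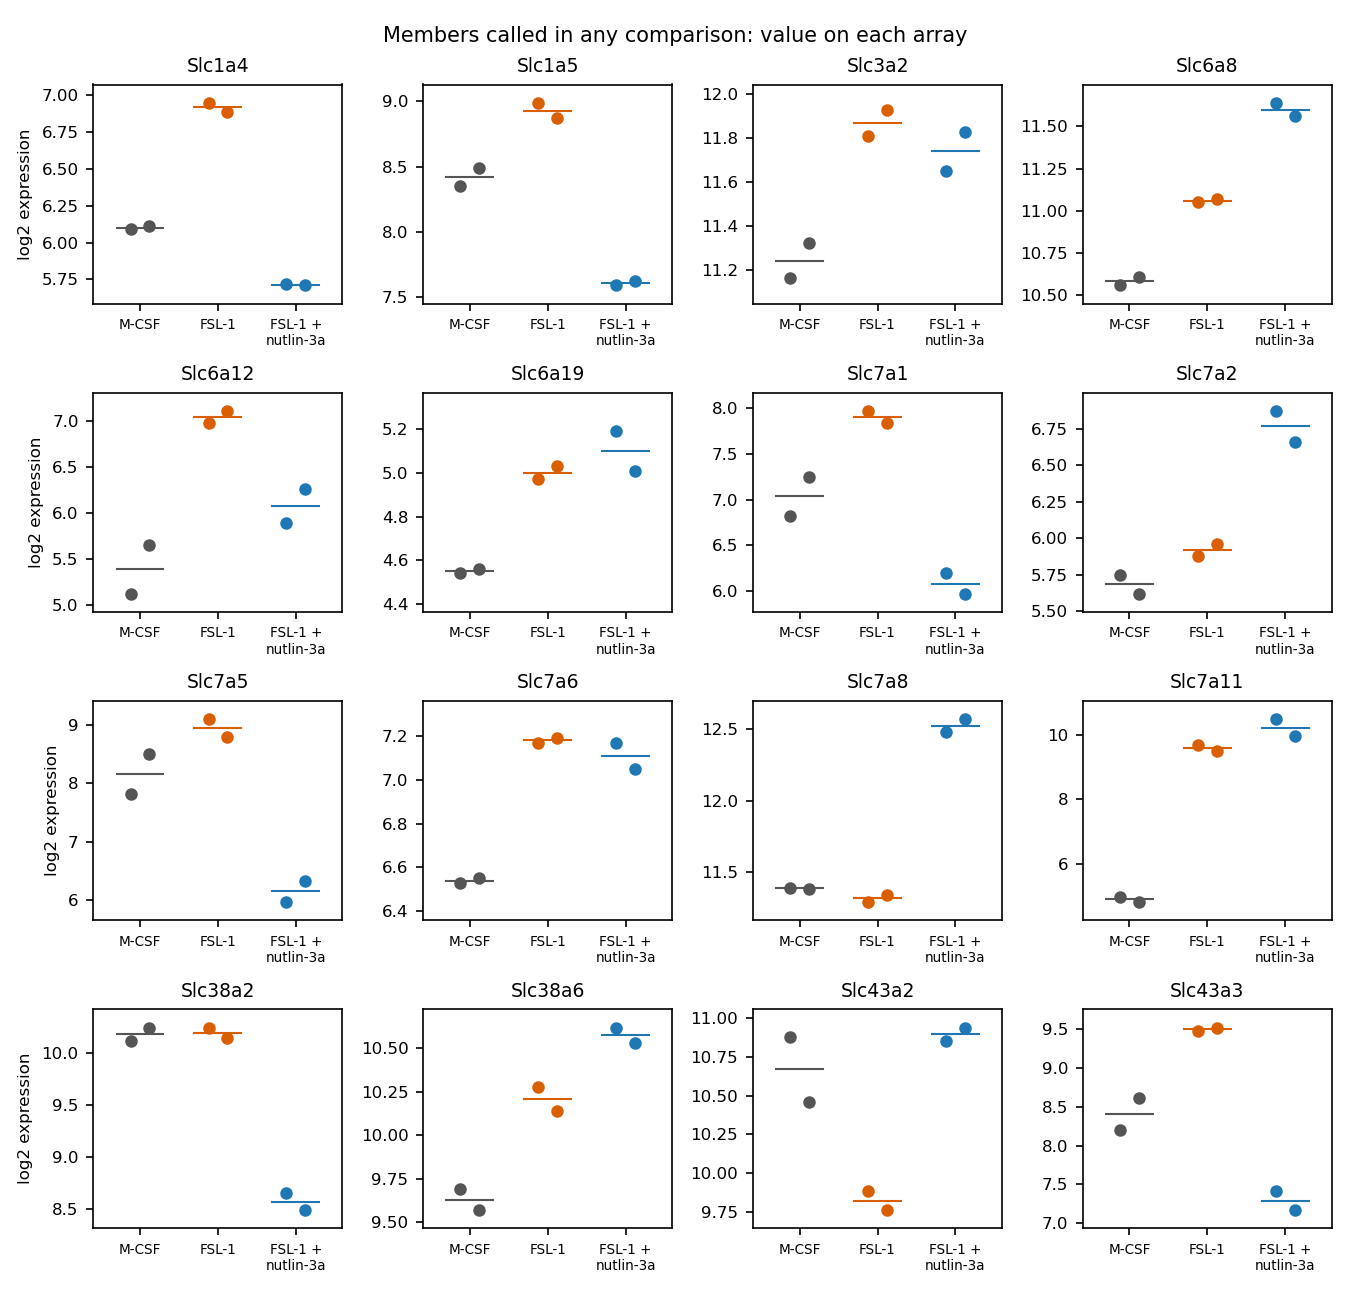
Log2 expression (vertical axis, its own range for each gene) on each of the 6 arrays for the 16 members called in any comparison; each point is 1 array and each bar the mean of a group. Slc7a11 sits between 4.81 and 4.97 in M-CSF and between 9.50 and 10.50 in the other groups, and Slc7a5 lies lowest in the nutlin-3a arrays, at 5.97 and 6.33.

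Slc7a11 is the light chain of system xc-, which brings in cystine in exchange for glutamate. Its values were 4.97 and 4.81 in M-CSF, 9.69 and 9.50 with FSL-1, and 10.50 and 9.97 with FSL-1 and nutlin-3a. The M-CSF arrays were below the median of all genes and every other array was far above it, with no overlap between any pair of groups. The log2 difference between FSL-1 and M-CSF was 4.70 (SE 0.182, adjusted p = 1.14e-05). Because the M-CSF level is not shown to be above background, no fold is given. Nutlin-3a added a further 0.64 (95% interval 0.22 to 1.06, adjusted p = 0.0853), which was not called. An eBayes fit with a trend and robust variances, on all 6 arrays, called this difference (0.64, adjusted p = 0.0189). The difference was 0.90 when nutlin-3a replicate 2 was left out. p53 is known from human and mouse cells to repress Slc7a11. In these arrays the difference under the p53-stabilising drug was upward and was not called in the main fit. The part of p53 in it was not tested. A second, dimmer Slc7a11 probe set read 3.28 and 3.61, then 4.76 and 4.76, then 5.86 and 4.66, so it gave the same direction with smaller differences of 1.32 and 0.50.

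Slc3a2, the heavy chain that carries Slc7a11, Slc7a5, Slc7a6, Slc7a7 and Slc7a8 to the surface, read 11.16 and 11.32 in M-CSF, 11.81 and 11.93 with FSL-1, and 11.65 and 11.83 with nutlin-3a. It rose 1.54-fold with FSL-1 (log2 0.63, SE 0.127, adjusted p = 0.0264). Nutlin-3a gave no called difference (-0.13, interval -0.42 to 0.17). Both FSL-1 arrays were above both M-CSF arrays, and the nutlin-3a arrays overlapped the FSL-1 arrays. The FSL-1 call did not survive the removal of any 1 of the 4 arrays compared.

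The promoters of called genes were searched for the amino acid response element, the composite site bound by Atf4 and its partners, since several of these genes are known Atf4 targets. RefSeq promoters (GRCm38.p6, 250 bases before to 50 after the start) were at hand for 47 of the 64 genes and for 10 of the 15 genes called in the FSL-1 or nutlin-3a comparison; Slc1a5, Slc6a8, Slc7a2, Slc7a5 and Slc43a3 were without one here. The letters TGATGNAA, on either strand, occurred in 4 of the 47 genes. Counted by promoter, since some genes have several, they were in 5 of 66 (7.58%), against 3.97% of all 32851 promoters of this length. Among the called genes, Slc7a11 and Slc1a4 held them. Slc7a11 has them at positions -66 to -59 on the promoter strand and, facing these, at -47 to -40 on the opposite strand, and Slc1a4 at -4 to 4 on the opposite strand. Both are printed 5′ to 3′ from base -130 to base 50 around the start (chr3:50443564-50443743 and chr11:20332664-20332843, both minus strand), with the matches in capitals.
Slc7a11: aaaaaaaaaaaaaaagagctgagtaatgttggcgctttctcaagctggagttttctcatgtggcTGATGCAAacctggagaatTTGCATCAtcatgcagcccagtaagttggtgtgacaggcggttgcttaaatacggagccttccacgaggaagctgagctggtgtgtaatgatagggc
Slc1a4: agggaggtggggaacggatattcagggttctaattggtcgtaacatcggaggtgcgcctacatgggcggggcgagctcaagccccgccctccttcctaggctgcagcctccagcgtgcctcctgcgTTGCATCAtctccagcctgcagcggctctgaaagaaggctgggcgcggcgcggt
The other genes of the 64 with these letters were Slc7a7, in alternative promoters, and Slc6a21, neither of which was called. The Slc7a7 promoters overlap and share 1 match, which is counted in each of them. The antioxidant response element, searched on both strands as TGACNNNGC, was in 9 of the 47 genes (10 of the 66 promoters, 15.2%, against 12.4% of all promoters), 3 of them called: Slc38a2, Slc7a1 and Slc7a6. The E-box CACGTG, which reads alike on both strands, was in 9 of the 47 genes. It was in 9 of the 66 promoters, a higher share than the 7.15% of all promoters. None of the 10 called genes with a promoter held it. With only 10 genes, this absence cannot be told apart from the share of all promoters. The antioxidant match of Slc7a6 is 1 site, counted in overlapping alternative promoters. In 1 promoter, that of Slc36a1, an E-box overlapped an antioxidant match. A match shows letters in the window, not binding.

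The exchangers of large neutral amino acids such as leucine moved in opposite directions with nutlin-3a. Slc7a5, the main leucine exchanger of growing cells, read 7.82 and 8.50 in M-CSF, 9.09 and 8.78 with FSL-1, and 5.97 and 6.33 with nutlin-3a. The nutlin-3a arrays lay below all others. Slc7a5 fell by 2.79 against FSL-1 (interval -3.33 to -2.25, adjusted p = 0.000808), a 6.90-fold drop. Its higher level with FSL-1 was not called (0.78, adjusted p = 0.0984), although the groups did not overlap. The eBayes fit with a trend and robust variances, with all arrays kept, called that difference (0.78, adjusted p = 0.0302). Leaving out M-CSF replicate 2 raised it to 1.12.

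Slc7a8, the related exchanger with a wider range of neutral substrates, read 11.39 and 11.38 in M-CSF, 11.29 and 11.34 with FSL-1, and 12.48 and 12.57 with nutlin-3a. The M-CSF and FSL-1 arrays lay close together (difference -0.08, interval -0.33 to 0.18). Slc7a8 rose 2.32-fold with nutlin-3a (log2 1.21, SE 0.111, adjusted p = 0.0012), and both nutlin-3a arrays were above the other 4.

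Slc43a2, a uniporter of large neutral amino acids, read 10.88 and 10.46 in M-CSF, 9.88 and 9.76 with FSL-1, and 10.85 and 10.94 with nutlin-3a. It was the 1 gene of the 64 that fell with FSL-1 (log2 -0.85, SE 0.156, adjusted p = 0.0183), and it rose with nutlin-3a (1.07, adjusted p = 0.00786) to a level that did not differ by test from M-CSF (0.23, interval -0.13 to 0.59). The first call needed M-CSF replicate 1 and both FSL-1 arrays, and the second both FSL-1 arrays and nutlin-3a replicate 2. Slc43a3, a purine nucleobase carrier by later work and so a family member by sequence only, read 8.20 and 8.61, then 9.47 and 9.52, then 7.41 and 7.17. It ran the other way from Slc43a2, with log2 changes of 1.09 (adjusted p = 0.00772) and -2.21 (adjusted p = 0.000399). The rise did not survive leaving out either FSL-1 array. Slc43a1 was not called in either comparison.

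Of the 3 cationic carriers, which bring in arginine and lysine, 1 fell and 1 rose with nutlin-3a, and the third, Slc7a3, was dim (4.08 to 4.49 on all arrays) and not called. Slc7a1, the widely expressed form, read 6.82 and 7.25 in M-CSF, 7.97 and 7.84 with FSL-1, and 6.19 and 5.97 with nutlin-3a. The 3 groups did not overlap. Slc7a1 rose 1.83-fold with FSL-1 (log2 0.87, SE 0.167, adjusted p = 0.0214) and fell 3.55-fold with nutlin-3a (log2 -1.83, adjusted p = 0.00119). The rise needed M-CSF replicate 1 and both FSL-1 arrays to be called.

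Slc7a2, the cationic carrier induced in activated macrophages, read 5.75 and 5.62, then 5.88 and 5.96, then 6.87 and 6.66. Its FSL-1 difference was 0.24 (adjusted p = 0.346), and with nutlin-3a it rose 1.79-fold (log2 0.84, SE 0.126, adjusted p = 0.00927); this call needed both FSL-1 arrays and nutlin-3a replicate 1. Slc7a6 and Slc7a7 exchange cationic for neutral amino acids and export arginine. Slc7a6 read 6.53 and 6.55, then 7.17 and 7.19, then 7.17 and 7.05, a 1.56-fold rise with FSL-1 (log2 0.64, adjusted p = 0.0153) with little further difference (-0.07, interval -0.33 to 0.19). That call needed all 4 arrays compared. Slc7a6os, on the opposite strand beside it, differed by -0.24 (adjusted p = 0.287). Slc7a7 lay between 9.68 and 10.01 on all 6 arrays and was not called.

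**Figure D2:**
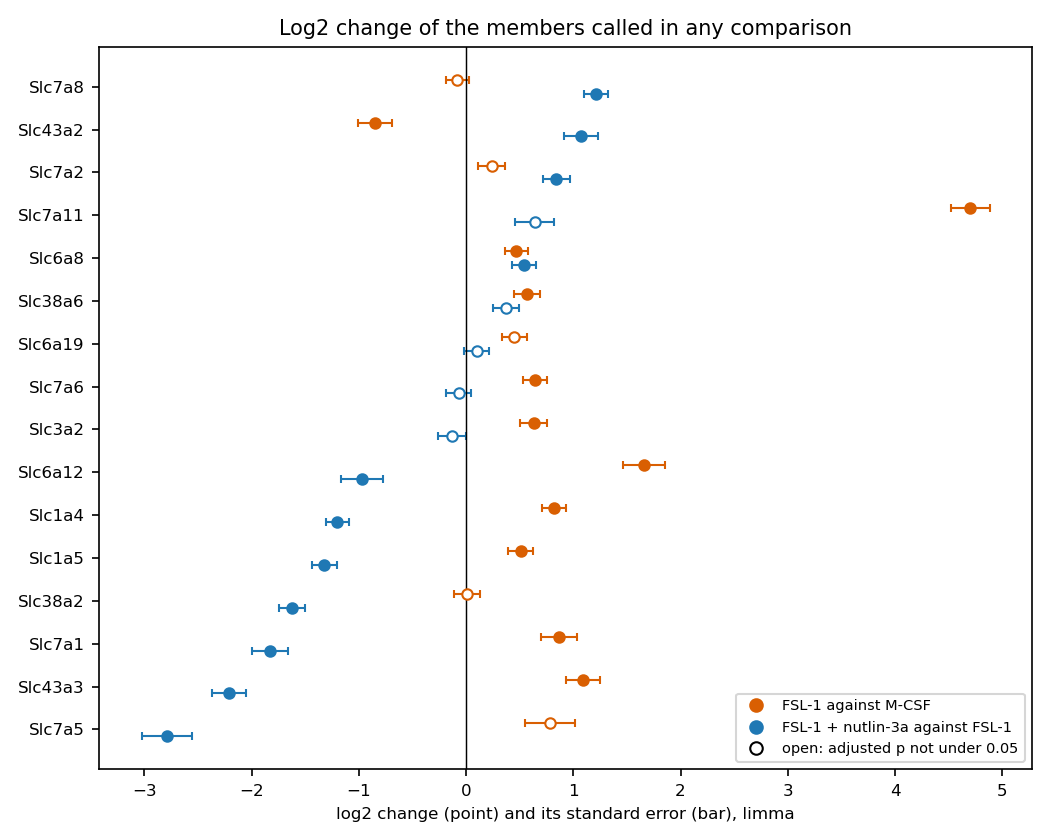
Log2 change (horizontal axis) of the 16 members called in any comparison, with FSL-1 against M-CSF and with nutlin-3a against FSL-1; points are limma estimates, bars are standard errors, and open points were not called. Slc7a5, Slc43a3, Slc7a1 and Slc38a2 lie furthest below 0 with nutlin-3a, at -2.79, -2.21, -1.83 and -1.62, while Slc7a8 lies at 1.21.

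Slc1a4 and Slc1a5, the sodium-dependent neutral carriers of the Slc1 family, both rose with FSL-1 and fell with nutlin-3a. Slc1a4, which carries alanine, serine and cysteine, read 6.09 and 6.11 in M-CSF, 6.95 and 6.89 with FSL-1, and 5.72 and 5.71 with nutlin-3a. Replicates differed by far less than the groups. Its log2 changes were 0.82 (SE 0.11, adjusted p = 0.00487) and -1.20 (adjusted p = 0.00119); leaving out FSL-1 replicate 1 took the rise just past the threshold (adjusted p = 0.054). Slc1a5, the glutamine carrier, read 8.35 and 8.49, then 8.99 and 8.87, then 7.59 and 7.62. Its fall with nutlin-3a was 2.50-fold (log2 -1.32, SE 0.119, adjusted p = 0.00113). Its rise with FSL-1 was small (0.51, adjusted p = 0.044) and was lost in 12 of 14 alternative analyses. These 14 count 1 fit more than once, since leaving out either nutlin-3a array gives the fit of the 4 compared arrays alone. A second, dimmer Slc1a5 probe set differed by 0.04 and -0.19. The 5 acidic carriers of the same family, which take up glutamate and aspartate, had no call and no unadjusted p under 0.05 in any comparison by limma. Slc1a3, the glutamate carrier reported in microglia and macrophages, lay between 3.21 and 3.70 on all arrays, below the median of probe sets without a gene name.

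Among the Slc38 genes, 1 system A carrier fell with nutlin-3a. Slc38a2, the system A carrier that cells raise when amino acids are short, read 10.11 and 10.24 in M-CSF, 10.24 and 10.14 with FSL-1, and 8.65 and 8.49 with nutlin-3a. M-CSF and FSL-1 overlapped (difference 0.01, interval -0.27 to 0.30), and both nutlin-3a arrays lay far below. The fall was 3.07-fold (log2 -1.62, SE 0.123, adjusted p = 0.000464). Slc38a1, its neighbour on chromosome 15 and another system A carrier, read 9.52 and 9.60, then 9.69 and 9.69, then 9.85 and 9.79, and was not called in either comparison. Slc38a6, reported in mouse as a glutamine carrier, read 9.69 and 9.57, then 10.28 and 10.14, then 10.62 and 10.53. It rose by 0.57 with FSL-1 (adjusted p = 0.0294), a call that needed all 4 arrays compared. Its further 0.37 with nutlin-3a was not called (adjusted p = 0.125), but was called by the eBayes fit with a trend and robust variances (adjusted p = 0.016).

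None of the 3 lysosomal carriers was called by limma in any comparison. Slc38a9, the lysosomal arginine sensor of mTORC1, read 9.17 and 8.91, then 8.88 and 8.79, then 9.17 and 9.37, with differences of -0.21 (adjusted p = 0.464) and 0.44 (adjusted p = 0.112). Slc36a1, which exports small amino acids from lysosomes with protons, read 9.40 and 8.97, then 8.57 and 8.79, then 9.05 and 9.32, with differences of -0.51 (adjusted p = 0.147) and 0.50 (adjusted p = 0.146). Slc38a7, a lysosomal glutamine exporter, differed by 0.37 and -0.38 and was singled out after its values were seen. All 3 had an unadjusted p under 0.05 with nutlin-3a and 2 had one with FSL-1. An eBayes fit with a trend and robust variances called Slc38a9 and Slc36a1 with nutlin-3a (adjusted p = 0.0244 and 0.0442) and Slc36a1 with FSL-1 (adjusted p = 0.0428). Slc36a4, reported as a carrier of tryptophan and proline, read 8.96 and 9.47, then 9.88 and 9.74, then 9.59 and 9.50 and was not called (0.60, adjusted p = 0.0905, with FSL-1). The trended robust fit called it with FSL-1 (adjusted p = 0.0166), as did leaving out M-CSF replicate 2 (0.86, adjusted p = 0.028). Its probe sets disagreed: the dimmer one differed by -0.04 and -0.47, against 0.60 and -0.27. Over all 5 Slc36 genes there was no call in any comparison, with 2 at unadjusted p under 0.05 with FSL-1 and 1 with nutlin-3a.

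The Slc6 carriers move neurotransmitters, osmolytes and some amino acids with sodium and chloride. Of the 20 genes with an Slc6 symbol, 1 of which is the opposite-strand gene Slc6a19os, 2 rose with FSL-1. Slc6a12, the carrier of betaine and GABA that cells use as an osmolyte pump, read 5.12 and 5.65 in M-CSF, 6.98 and 7.11 with FSL-1, and 5.89 and 6.26 with nutlin-3a. The nutlin-3a arrays lay between the other groups without overlap. Slc6a12, whose mean in M-CSF was below the median of all genes, rose by 1.66 on the log2 scale with FSL-1 (SE 0.199, adjusted p = 0.00281) and fell 1.96-fold with nutlin-3a (log2 -0.97, adjusted p = 0.0301), the second call being lost without any 1 of its 4 arrays. Slc6a8, the creatine carrier, read 10.56 and 10.61, then 11.05 and 11.07, then 11.64 and 11.56, higher in each group in turn. Its steps were 0.47 (adjusted p = 0.0454) and 0.54 (adjusted p = 0.0299). The first was lost on leaving out any 1 of the 4 arrays compared, and in the fit of those 4 arrays alone. The second was lost on leaving out any 1 of the 4 arrays it compared. Slc6a6, the taurine carrier, read 12.23 and 12.09, then 11.82 and 11.79, then 11.99 and 11.87 and was not called (-0.35, adjusted p = 0.132, with FSL-1). The trended robust fit called the FSL-1 difference of Slc6a6 (adjusted p = 0.00533). Slc6a9 was not analysed here, because its probe set also names another gene.

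**Figure D3:**
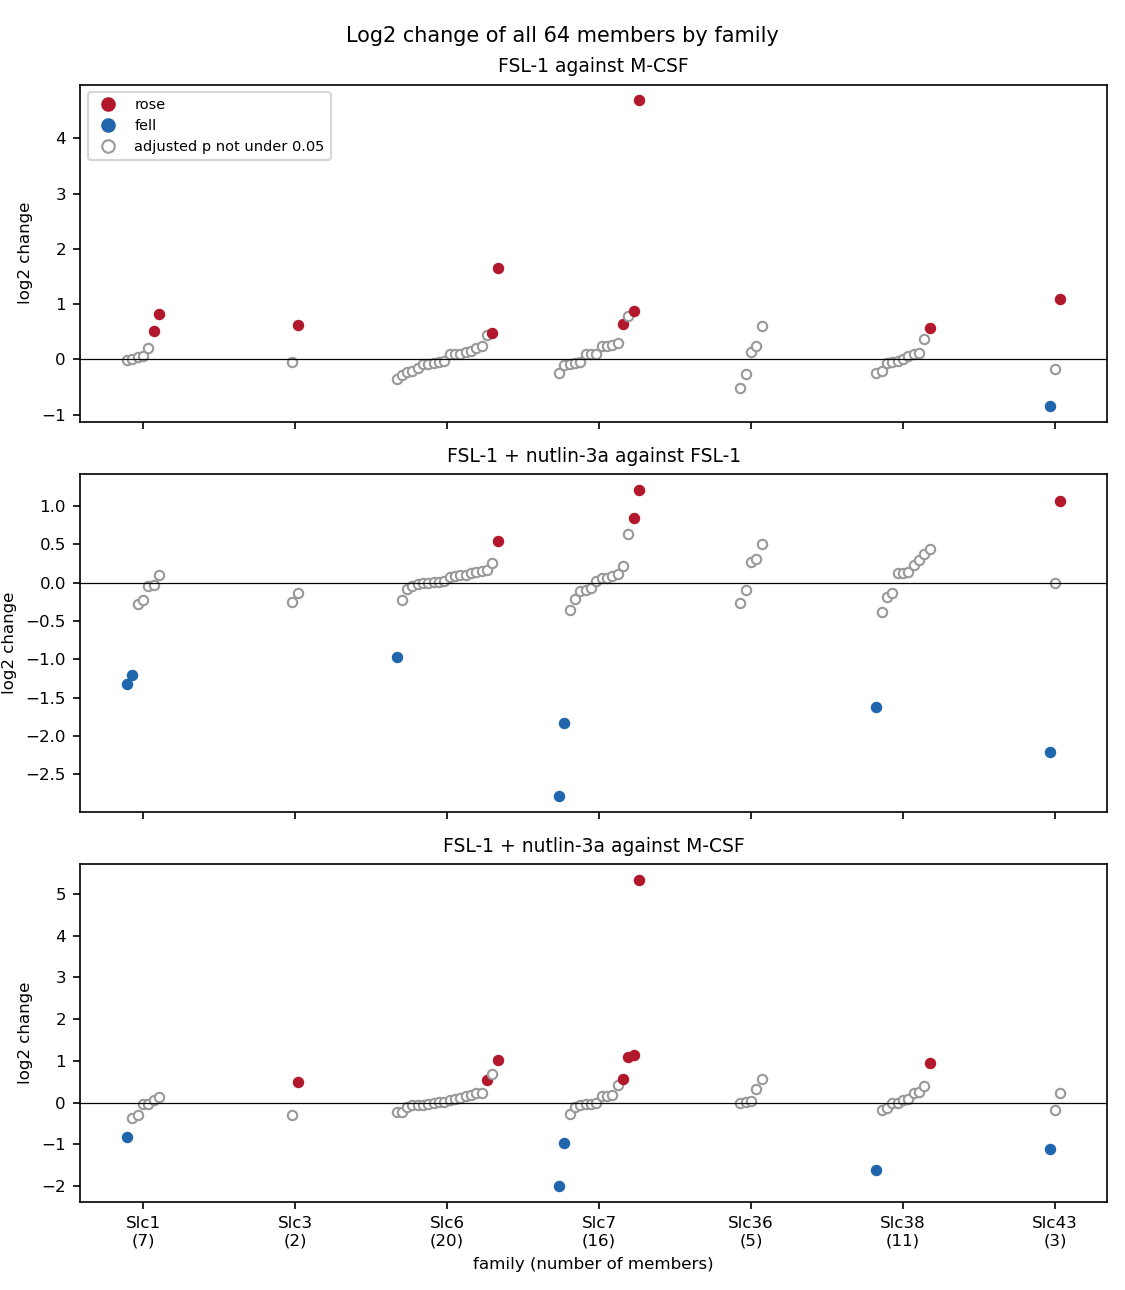
Log2 change of every one of the 64 genes by family, in each comparison; each point is 1 gene, open where not called, and the vertical axis is log2 change. Most points lie near 0 in all 7 families, and the calls are few in each: 2 of 7 Slc1, 1 of 2 Slc3, 3 of 20 Slc6, 6 of 16 Slc7, 0 of 5 Slc36, 2 of 11 Slc38 and 2 of 3 Slc43 genes in any comparison.

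By family, the median change was small against the single changes. With FSL-1 the medians were 0.07 for Slc1, 0.29 for Slc3, 0.03 for Slc6, 0.17 for Slc7, 0.13 for Slc36, 0.01 for Slc38 and -0.18 for Slc43, and with nutlin-3a they were -0.23, -0.19, 0.05, 0.04, 0.27, 0.13 and -0.01. The Slc6, Slc7 and Slc36 medians each include an opposite-strand gene. The Slc36 median of 0.27 with nutlin-3a is the value of Slc36a1os, which is not a transporter. Of the 64 genes, 48 were called in no comparison. In 34 of the 64, no group mean passed the median of all genes; their array values ran from 2.75 to 5.74, and 7 of them did not pass the median of probe sets without a gene name in any group. The arrays do not tell whether such genes were expressed. The 1 called gene among these 34 was Slc6a19, a neutral amino acid carrier of gut and kidney. It read 4.54 and 4.56, then 4.97 and 5.03, then 5.19 and 5.01, and was called only for both agents against M-CSF (0.55, adjusted p = 0.0257).

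Against M-CSF rather than FSL-1, the cells given both agents had 8 of the 64 genes higher and 5 lower, 20.3% against 9.51% of all genes (12.5% against 4.58% rose, and 7.81% against 4.94% fell). This comparison shares its arrays with the other two and asks where each gene ended up. Slc7a5, Slc38a2, Slc43a3, Slc7a1 and Slc1a5 ended below their M-CSF level, by -2.01, -1.61, -1.12, -0.96 and -0.82 (adjusted p = 0.00159, 0.000205, 0.00434, 0.0105 and 0.00455). Slc1a4 ended at -0.38, which was not called (adjusted p = 0.0704). Slc7a11, Slc7a8, Slc7a2, Slc6a8, Slc38a6, Slc7a6, Slc6a19 and Slc3a2 ended above it. Slc7a11 stood 5.34 above M-CSF on the log2 scale (adjusted p = 1.09e-05; 1.81 by its second probe set), and Slc7a8, Slc7a2, Slc6a8 and Slc38a6 stood 1.14, 1.08, 1.02 and 0.94 above it on the log2 scale. The rise of Slc3a2 (0.50, adjusted p = 0.0479) was lost in 10 of 14 alternative analyses, that of Slc6a19 in 6 and that of Slc7a6 in 3, and the fall of Slc7a1 was lost without nutlin-3a replicate 2. Here too the 14 count the fit of the compared arrays alone more than once.

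The 21 other genes of the Atf4 amino acid response, which do not overlap the 64, had calls mostly upward with FSL-1 and mostly downward with nutlin-3a. With FSL-1, 14 of the 21 rose and none fell, with a median of 0.72 (3.91% of all genes rose). Trib3, a pseudokinase induced by Atf4, rose by 1.69 (SE 0.161, adjusted p = 0.000932), Nupr1, a stress-induced chromatin protein, by 1.07 (adjusted p = 0.00148), Cebpb, a partner of Atf4, by 1.12 (adjusted p = 0.00444), and Chac1, which degrades glutathione, by 1.41 (adjusted p = 0.00501). Fewer of the 21 were called without M-CSF replicate 1 or without either FSL-1 array. Fewer of all genes were called in those fits as well. With nutlin-3a, 14 of the 21 fell and 1 rose, with a median of -1.13 (4.12% of all genes fell). The log2 change was -1.81 for Nupr1 (adjusted p = 0.00024), -2.32 for Trib3 (adjusted p = 0.000344), -2.37 for Psat1, an enzyme of serine synthesis (adjusted p = 0.000371), and -2.23 for Mthfd2, a mitochondrial folate enzyme (adjusted p = 0.00137). The 1 that rose was Ddit4, an mTORC1 inhibitor also known as a p53 target (1.00, adjusted p = 0.0223). Its call was lost without FSL-1 replicate 1 and without either nutlin-3a array. Atf4 itself averaged 8.59 ± 0.24 in M-CSF, 9.31 ± 0.06 with FSL-1 and 8.05 ± 0.04 with nutlin-3a (SD, n = 2 each), with log2 changes of 0.72 (adjusted p = 0.0238) and -1.26 (adjusted p = 0.0026). With both agents against M-CSF, 3 of the 21 rose and 5 fell, with a median of -0.28 (4.58% and 4.94% of all genes). The 5 falls became 8 on leaving out M-CSF replicate 1, 2 on leaving out M-CSF replicate 2, and 3 on leaving out either nutlin-3a array.

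The other amino acid lists showed fewer calls. Their counts stand beside 3.91% of all genes that rose and 2.95% that fell with FSL-1, and 2.38% and 4.12% with nutlin-3a. Of 27 enzymes that use the carried amino acids, 4 rose with FSL-1: Gclm, a subunit of the enzyme that commits cysteine to glutathione (1.41, adjusted p = 0.000393), Gss, which completes glutathione (0.80), the polyamine enzyme Odc1 (0.81) and the arginase Arg2 (0.63). With nutlin-3a, 1 of the 27 rose, Gclc, the catalytic partner of Gclm (0.75), and 3 fell: Oat (-0.80), Kmo (-0.82) and Gpt2 (-0.64), which act on ornithine, kynurenine and alanine. Of 33 genes by which mTORC1 senses amino acids, 1 rose with FSL-1, the leucine sensor Sesn2, also on the Atf4 list (0.69), and 4 fell, among them its relative Sesn1 (-1.31) and the GTPase Rragb (-1.02). With nutlin-3a 3 rose and 1 fell, led by Sesn3 (1.08) and Rragb (-0.61). Of 19 amino acid and peptide carriers outside the 7 families, 1 rose and 2 fell with FSL-1: the lysosomal peptide carrier Slc15a3 rose (0.72), and the cystine exporter of lysosomes Ctns (-0.57) and the peptide carrier Slc15a2 (-1.10) fell. With nutlin-3a 1 of the 19 rose, again Slc15a3 (0.62), and 3 fell: Slc15a4 (-0.66), Slc25a38 (-0.59) and Slc25a44 (-0.49). Most of these counts drop when an array is left out: with FSL-1 the enzymes that rose went down to 1, and with nutlin-3a no sensing gene was called by limma without any 1 of the 4 arrays compared. The median changes of the enzymes, sensing genes and other carriers were 0.11, -0.11 and 0.03 with FSL-1 and -0.11, 0.01 and 0.08 with nutlin-3a.

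**Figure D4:**
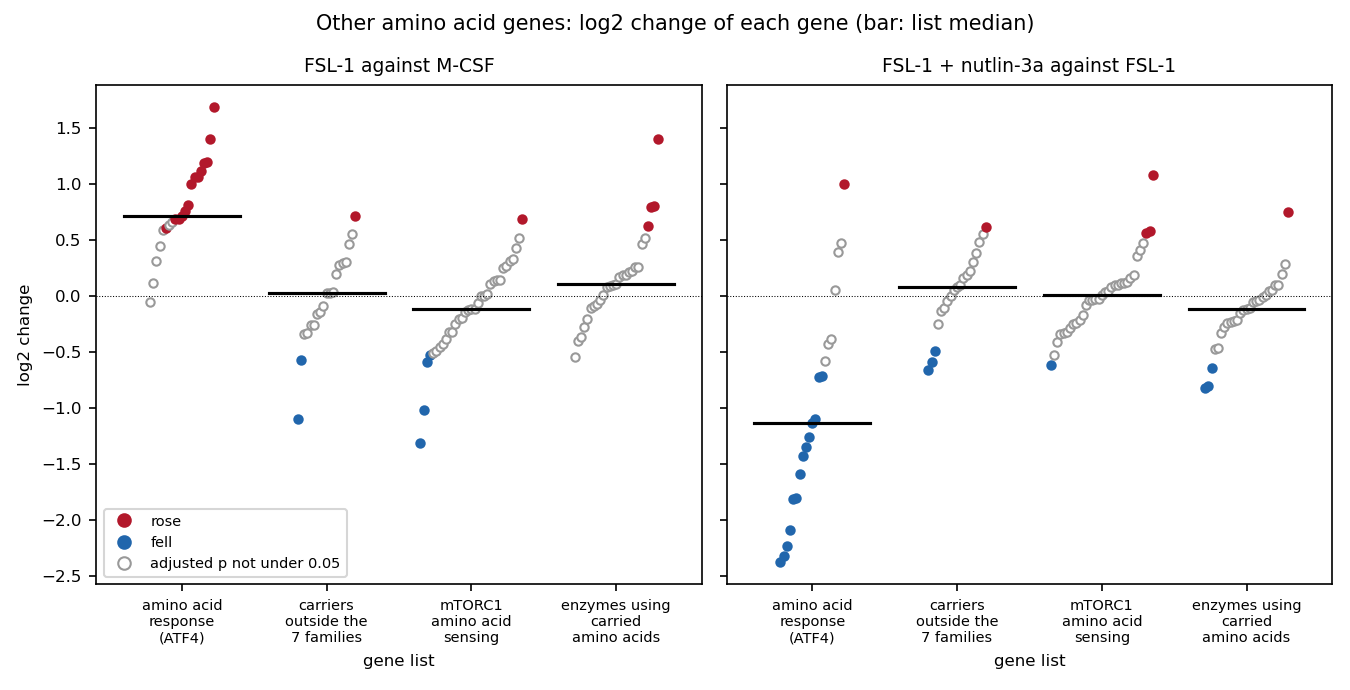
Log2 change (vertical axis) of each gene of the 4 other amino acid lists, with FSL-1 against M-CSF and with nutlin-3a against FSL-1; each point is 1 gene, filled where called, and the bar is the median of the list. The median of the 21 Atf4 response genes lies at 0.72 with FSL-1 and -1.13 with nutlin-3a, while those of the other lists lie between -0.11 and 0.11.

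Of the 35 calls made on the 64 genes over the 3 comparisons, 18 held in all 14 alternative analyses, 6 of which leave out an array each. For each comparison, leaving out either array of the third group gives the same fit as the 4 compared arrays alone. The 14 alternatives therefore count 1 fit more than once. With FSL-1, 2 of the 10 rises held throughout, those of Slc7a11 and Slc6a12. With nutlin-3a, 6 of the 7 falls held throughout (Slc1a4, Slc1a5, Slc7a1, Slc7a5, Slc38a2 and Slc43a3), as did 1 of the 4 rises, that of Slc7a8.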

How the data were processed

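Total RNA of the sorted cells was amplified with the NuGEN Ovation PicoSL system before hybridisation to Affymetrix arrays (per the labels' protocols). Each deposited value is the log2 signal of 1 probe set after RMA; the submitters' processing notes also list Affymetrix Expression Console 1.4. RMA equalises the arrays, so a change shared by most genes would be hidden; array medians were 5.05 to 5.14. No detection calls were used, and the number of arrays (6) limits the precision.

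The platform annotation gave 1 gene for 23521 of the 34390 probe sets, more than 1 for 1814, and no gene for 9055; 23328 of the first were matched to RefSeq (GRCm38.p6) by Entrez identifier and no symbol changed. The brightest probe set was kept for each of 22180 genes. All 6 arrays entered 1 limma fit (version 3.58.1 in R 4.3.3; lmFit, eBayes, residual df 3, prior df 4.88) with 3 contrasts and two-sided tests, each adjusted by Benjamini-Hochberg over all genes. The script was tested on simulated data. Named genes were those called in any comparison, plus a list of carriers known in macrophages, and up to 4 called genes per comparison from each other list. The transporters, lists and motifs were chosen with earlier results of these data known, and substrate classes of 3 genes were added after the files were seen. Alternatives were quantile normalization again, centring, averaging the probe sets of each gene, leaving out dim genes, a trended robust eBayes, a fit of only the 4 arrays compared, the replicate number as a block, and leaving out each array. For each comparison, leaving out an array of the third group repeats the fit of only the 4 arrays compared.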

Additional observations from a re-analysis of the deposited data

How the results depend on the processing

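Counts moved more than directions. With FSL-1, 13 of the 64 genes rose under the trended robust eBayes, against 10 in the main fit. Leaving out dim genes removed 7 of the 64, and 11 of those kept rose. In that fit 11.6% of the 17427 genes kept were called with FSL-1, against 6.86% of all genes in the main fit. For both agents against M-CSF, the trended robust eBayes gave 9 that rose, against 8. The number of the 64 genes that rose with FSL-1 was 10 and ran from 2 to 8 when 1 array was left out (4 on leaving out M-CSF replicate 1, and 2 or 3 on leaving out the first or the second FSL-1 array); the number that fell was 1, ran from 0 to 1, and was 3 with a trended robust eBayes. With nutlin-3a against FSL-1, the number that rose was 4, ran from 1 to 4 (1 without either FSL-1 array, 2 without nutlin-3a replicate 1), and was 8 with the trended robust eBayes, while the number that fell was 7 and stayed at 6 to 8. For both agents against M-CSF, the number that rose was 8 and ran from 5 to 7, and the number that fell was 5 and stayed at 4 to 6. Over all genes the trended robust eBayes called 2744, 2658 and 3337 genes against 1521, 1441 and 2110, and leaving out an array gave 451 to 1299, 352 to 1212 and 1158 to 1529.

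The replicate numbers are shared by the groups, but same-numbered arrays did not deviate together (correlations -0.1878, 0.0175 and -0.0248). The labels do not say whether same-numbered arrays share a mouse or a day. With so few arrays per group, these correlations cannot decide it. With the number as a replicate block, 8 rose and 1 fell with FSL-1, and 3 rose and 7 fell with nutlin-3a. For both agents against M-CSF, 8 rose and 5 fell. Over all genes this fit called 5.26%, 4.53% and 7.78% in these comparisons, against 6.86%, 6.5% and 9.51% in the main fit. With the M-CSF numbers crossed, an alternative chosen after seeing the data, the counts were 8 and 1, 4 and 6, and 7 and 5. The crossed fit called 5.76%, 5.18% and 8.89% of all genes.

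Of 963 values of single genes under the alternatives, 852 kept direction and call, 80 lost a call, 18 gained one and 13 changed sign, all 13 of genes that were not called in that comparison. The 963 include the repeated fits named above, so some values are counted more than once. With an array left out, these differences ran from -0.17 to 0.32 for Slc1a3 with FSL-1, -0.16 to 0.10 with nutlin-3a and -0.20 to 0.29 for both agents, -0.01 to 0.20 for Slc7a7 and -0.05 to 0.08 for Slc38a2 with FSL-1, and -0.22 to 0.21 for Slc36a1 with both agents. Slc1a3 with FSL-1 was -0.17 without M-CSF replicate 1 and -0.06 without FSL-1 replicate 1; with nutlin-3a it was 0.10 without FSL-1 replicate 1, and against M-CSF -0.20 without M-CSF replicate 1. Slc7a7 with FSL-1 was -0.01 without M-CSF replicate 2. For both agents against M-CSF, Slc36a1 was 0.03 after quantile normalization again, 0.21 without M-CSF replicate 1 and 0.13 without nutlin-3a replicate 1, and Slc36a4 was -0.09 as the mean of its probe sets. Slc38a2 with FSL-1 was -0.03 after quantile normalization again, -0.02 after centring, -0.05 without M-CSF replicate 1 and -0.04 without FSL-1 replicate 1. The cause was not tested.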
